A study of Mus musculus with 44 samples.

Results

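The 44 single cells of the series were divided by their level of Acta2, the gene for alpha smooth muscle actin. A total of 16 cells had a deposited log2 value of 5 or more for Acta2 and are called Acta2-high here, and the other 28 had less than 5 and are called Acta2-low. The Acta2-high cells made up 36.4% of the 44 (exact Clopper-Pearson 95% interval 22.4 to 52.2, counting error only). The groups were chosen by the measured Acta2 values, so the Acta2 levels below describe that choice. All other values come from the same cells and the same split, so they are given with no test.

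The cells are Tomato-positive cells from hindlimb muscles of adult C57BL/6 mice of genotype Prrx1-CreERT;Tomato, and both groups share this origin. The mice had received tamoxifen, 2 mg per mouse, on each of 3 days, which lets a Cre recombinase made in Prrx1-expressing cells switch on the red reporter. The label thus rests on past Prrx1 activity at the time of injection, and no unlabelled cells or untreated mice are among the samples. Digested muscle was sorted for the reporter, single cells were picked under a fluorescence microscope, and each became a Nextera XT library. No animals are named, so the 44 cells count as 1 sample, an SD below is the spread over cells, and no p-value was computed.

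Alpha smooth muscle actin belongs to the family of actins. It forms the contractile filaments of smooth muscle around vessels, is also made by some pericytes, and appears in fibroblasts that become myofibroblasts during wound healing and fibrosis. Its gene is driven by serum response factor together with the myocardin family of cofactors, through promoter elements called CArG boxes, and is induced by TGF-beta and by mechanical load. In resting skeletal muscle most interstitial mesenchymal cells are fibro-adipogenic progenitors, which carry the receptor Pdgfra, the surface protein Ly6a (Sca-1) and Cd34.

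Promoter windows from RefSeq (GRCm38.p6, 250 bases before to 50 after the gene start) are shown for 3 genes. Myl9 and Actg1 were picked for the CArG boxes in their windows. Acta2 is the gene that splits the cells, Myl9 is the gene of the contractile list that holds a CArG box in its window, and Actg1 is a second actin with such a box whose level hardly differed between the groups. Capitals mark CArG boxes, and CArG boxes with 1 G or C in the core, on either strand. The sequences are written 5′ to 3′ along the gene's own strand.
Acta2, chr19:34255324-34255623, minus strand: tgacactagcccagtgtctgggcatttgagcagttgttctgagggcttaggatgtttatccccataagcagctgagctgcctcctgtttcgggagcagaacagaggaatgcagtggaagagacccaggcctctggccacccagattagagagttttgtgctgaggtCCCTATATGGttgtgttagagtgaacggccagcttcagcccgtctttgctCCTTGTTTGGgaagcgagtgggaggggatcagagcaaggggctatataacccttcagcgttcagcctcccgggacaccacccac
Myl9, chr2:156775214-156775513, plus strand: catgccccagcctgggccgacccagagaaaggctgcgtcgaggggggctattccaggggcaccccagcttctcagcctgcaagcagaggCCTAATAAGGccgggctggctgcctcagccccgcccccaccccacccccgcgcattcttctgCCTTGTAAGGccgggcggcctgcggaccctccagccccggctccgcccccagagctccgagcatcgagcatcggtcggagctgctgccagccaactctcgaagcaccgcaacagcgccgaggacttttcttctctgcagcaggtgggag
Actg1, chr11:120348446-120348745, minus strand: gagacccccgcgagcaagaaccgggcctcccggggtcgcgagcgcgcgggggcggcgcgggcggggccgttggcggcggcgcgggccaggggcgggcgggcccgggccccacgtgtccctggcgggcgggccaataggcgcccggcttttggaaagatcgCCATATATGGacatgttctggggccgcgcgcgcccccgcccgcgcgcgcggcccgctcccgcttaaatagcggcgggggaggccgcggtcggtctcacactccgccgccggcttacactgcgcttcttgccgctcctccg
The Acta2 window holds boxes of the second kind, starting 84 and 34 bases before the gene start used by RefSeq. The gene coordinates given below for Acta2 come from another annotation and reach to 34255590, so by them both boxes lie inside the gene. The Myl9 window holds a CArG box that starts 161 bases before the gene start and a box of the second kind at 99, and the Actg1 window holds a CArG box at 90. Of 32851 RefSeq windows of 300 bases, 1.63% hold a CArG box and 8.5% hold one with 1 G or C in the core. Among the 19 contractile genes with a window, 1 held a CArG box (Myl9) and 3 held the other form (Myl9, Crip1 and Pcp4l1). These are matches of letters within short windows and say nothing about binding in these cells.

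Acta2 (ENSMUSG00000035783, chromosome 19, 34241090 to 34255590, minus strand, GRCm38) ranged from 5.09 to 13.78 in the 16 Acta2-high cells, with a median of 7.10 and a mean of 7.77 ± 2.40 (SD). The highest values were 13.78 in cell 36, 10.19 in cell 32, 10.14 in cell 30 and 9.75 in cell 17. Cells 40, 5, 16 and 18 followed at 9.01, 8.69, 8.44 and 7.25. The other high cells were cells 2, 3, 33, 15, 4, 11, 8 and 34, at 6.95, 6.67, 6.45, 5.85, 5.41, 5.38, 5.28 and 5.09. Acta2-high cells therefore formed a continuous series of levels down to the threshold, with cell 36 standing above the rest. In the 28 Acta2-low cells the values ran from 0 to 4.62, with a median of 1.80 and a mean of 1.89 ± 1.12. Just inside the threshold stood cell 34 at 5.09 and cell 8 at 5.28, and just outside it stood cell 31 at 4.62 and cell 35 at 4.31. A log2 value of 5 equals an FPKM of 31, and only 2 of the 28 Acta2-low cells were listed at 0 while 21 had a log2 value of 1 or more.

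Low values in this table were shared between particular cells. From rank correlations over every other row of the table, 174 of 946 pairs of cells were linked, and the linked cells formed 6 blocks of 7, with cells 30 and 44 in none. Genes strong in 1 cell appeared in linked cells at a median of 0.27% of their FPKM and in unlinked cells at 0. Acta2-high cells numbered 4, 2, 4, 0, 4 and 1 in blocks 1 to 6, and 1 of the cells outside the blocks was high. In cells 33 and 34, of the same block as cell 36, Acta2 stood at 1.89 and 0.793 times the signal expected from linked cells, so that their Acta2 cannot be told apart from carried signal. In the other 14 high cells it was at least 14.9 times the expected signal.

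**Figure D1:**
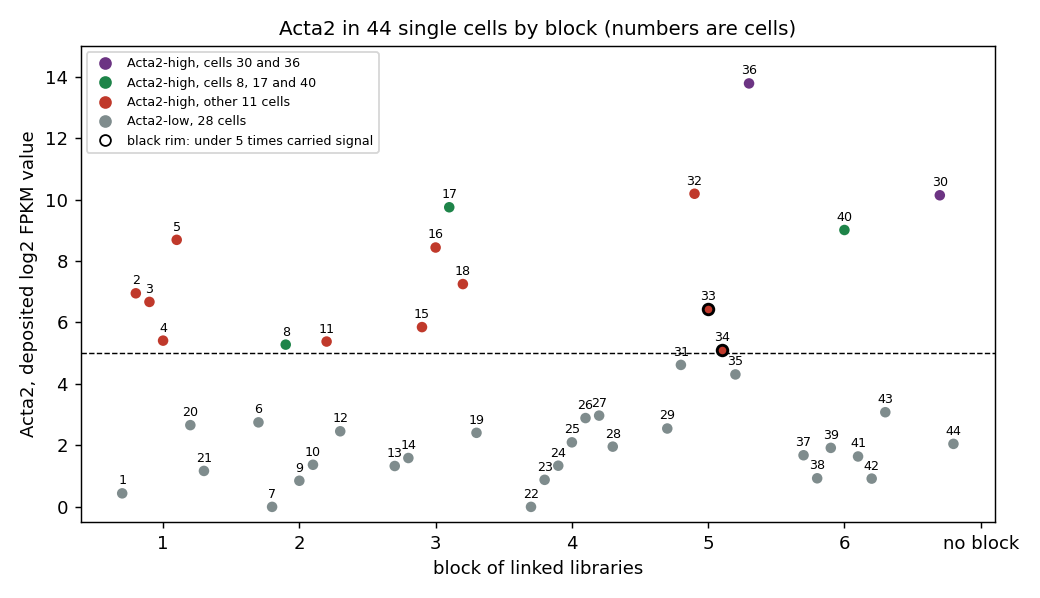
Acta2 level of each of the 44 cells (deposited log2 FPKM value, vertical axis) by block of linked libraries (horizontal axis), with cell numbers and the threshold of 5 as a dashed line. Block 4 holds no Acta2-high cell, 4 other blocks hold at least 2 cells of each group, and cells 33 and 34 (black rims) lie under 5 times the carried signal.

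A gene was compared when it reached a log2 value of 5 in at least 5 of the 44 cells, which 4266 genes did, Acta2 left out. Cells of both groups counted, so a gene could pass through a single group. Among the genes named below, Tagln and Thbs1 passed through Acta2-high cells alone, and Efhd1, Efhd1os, Fap and Mrpl36 through Acta2-low cells alone. Further genes reached 5 in too few cells of the other group to pass by them. Among these, Meox1, Prrc2b, Slc35b1, Lgals3, Comp and Rgs5 reached 5 in at most 3 Acta2-low cells, and Tek and Tnfaip2 in 1 Acta2-high cell. For genes of both kinds the filter itself favoured the direction of the difference, so their calls are no separate support. A compared gene was counted as higher or lower when the group means differed by 2 or more on the log2 scale, a factor of 4 in FPKM + 1. By this rule 65 genes (1.52%) were higher and 60 (1.41%) were lower in Acta2-high cells, and the median difference of all 4266 was -0.05 with an SD of 0.90. Over the 4 blocks that hold at least 2 cells of each group, with 14 cells a group, 64 of the 65 kept a positive mean difference and 30 of them reached 2. Of the 60 lower genes 59 kept a negative difference and 40 reached -2. The genes were chosen for a difference over cells that include these, so kept signs were largely built in and are no separate support. How many genes another division of these cells would give was not tested.

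**Figure D2:**
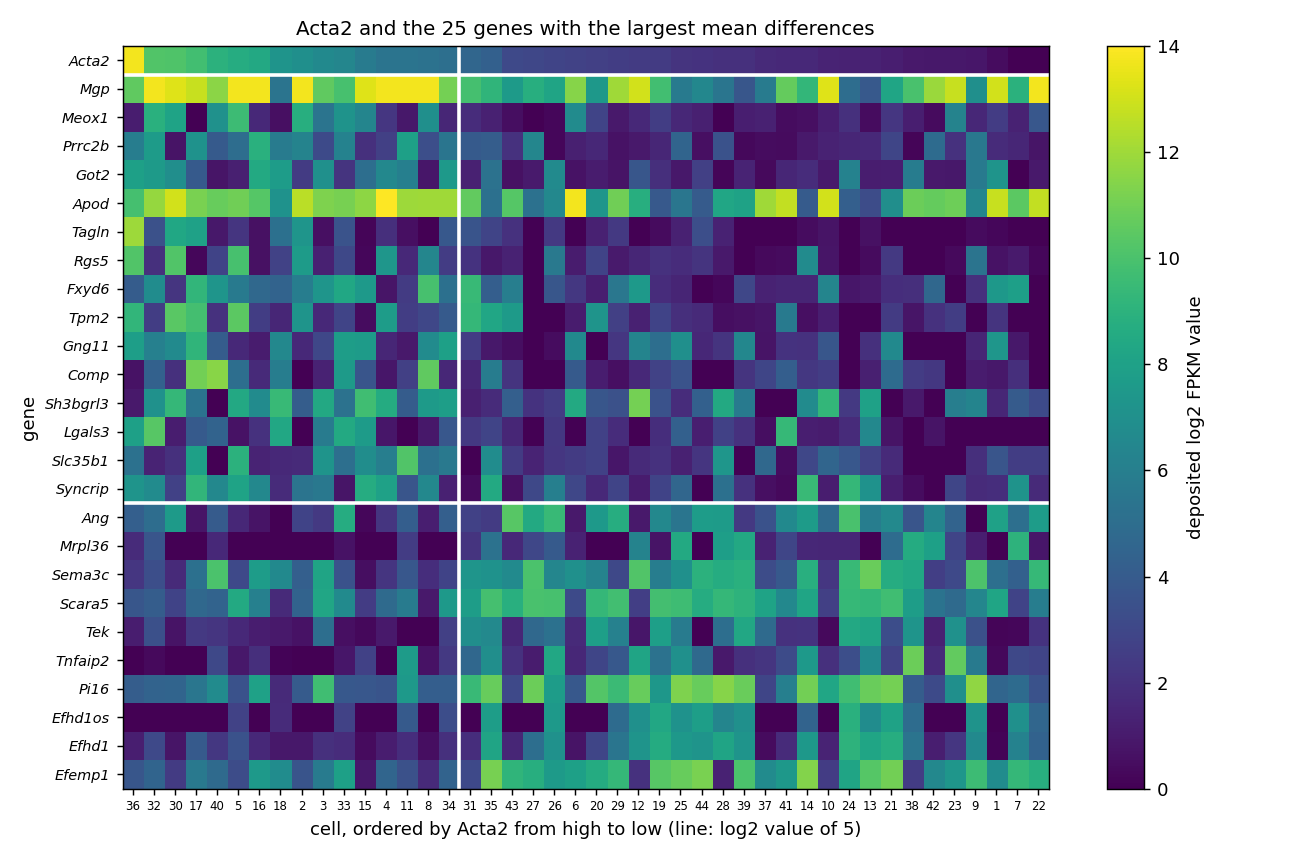
Deposited log2 FPKM values (colour) of Acta2, the 15 genes with the largest positive and the 10 with the largest negative mean difference (vertical axis) in all 44 cells, ordered by Acta2 from left to right (horizontal axis). The vertical white line separates the 16 Acta2-high from the 28 Acta2-low cells. Most leading genes are bright in some cells of both groups, while Efhd1, Efhd1os and Mrpl36 stay dark in every Acta2-high cell.

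Acta2 is itself a smooth muscle contractile gene, and the other genes of that set were higher mainly in few cells. All 21 listed were measured, 13 passed the filter, and 4 of these were higher in Acta2-high cells (Tagln, Myl9, Tpm1 and Tpm2) and 0 lower, against 1.52% and 1.41% of all genes compared. Tagln passed the filter through Acta2-high cells alone. The median difference of the 13 was 0.67, and 4 of them had a lower mean in Acta2-high cells. These were Hspb1, Des, Mustn1 and Flna, at -1.41, -1.07, -0.75 and -0.71. Per cell, from 4 to 17 of the 21 genes reached a log2 value of 5 in Acta2-high cells (mean 7.0 ± 4.23) and 3 to 8 in Acta2-low cells (5.75 ± 1.21). Cell 36 held 17 and cell 30 held 16, cell 5 held 10, and cells 2 and 17 held 9 each. The other 11 Acta2-high cells held 4 to 7. The counts include genes present in most cells of both groups, such as Crip1 (16 high and 28 low cells), Cald1 (15 and 25) and Myl6 (15 and 24). Most of the contractile list was thus present in cells 30 and 36, while most Acta2-high cells held a number of contractile genes within the range of Acta2-low cells. Leaving out cells 30 and 36, as below, must lower the difference of genes that are high in them. It shows where those differences lay and is no test.

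Tagln, the actin-binding protein transgelin of smooth muscle (ENSMUSG00000032085, chromosome 9, 45929619 to 45936058, minus strand), ranged from 0 to 11.94 in Acta2-high cells with a median of 2.82. In Acta2-low cells it ranged from 0 to 3.66 with a median of 0.34. It reached 5 in cells 36, 30, 17, 2 and 18, at 11.94, 8.35, 8.0, 7.29 and 5.18, and in 0 of the 28 Acta2-low cells, which allows a share of up to 10.7%. The groups overlapped, since the other 11 Acta2-high cells lay between 0 and 3.86. The mean difference was 2.83 (3.66 ± 3.57 against 0.83 ± 1.14), and 1.90 without cells 30 and 36. Tagln overlaps Pcsk7 on the opposite strand, and reads of overlapping genes cannot be told apart where strand was not used, which the sources used here do not state.

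Myl9, the regulatory light chain of smooth muscle myosin, had values of 0.70, 4.51 and 13.32 (lowest, median, highest) in Acta2-high and 0.61, 2.46 and 9.71 in Acta2-low cells. A value of 5 was reached in 7 cells of each group. Its mean difference of 2.14 dropped to 1.18 without cells 30 and 36, and it was higher in 2 and lower in 2 of the 4 blocks. Tpm2, a tropomyosin of actin filaments, reached 5 in 6 Acta2-high and 5 Acta2-low cells, with a mean difference of 2.61, 1.91 without cells 30 and 36 and 1.31 within blocks. Tpm1, the other muscle tropomyosin, reached 5 in 9 of 16 against 13 of 28 cells, with a mean difference of 2.00, and 1.42 without the same cells.

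Myh11, the myosin heavy chain of mature smooth muscle, was too rare to pass the filter. It stood at 7.11 in cell 36, 6.92 in cell 30 and 5.65 in cell 4, and at no more than 3.42 in every other Acta2-high cell and 3.36 in every Acta2-low cell. Cnn1, the calponin of smooth muscle, stayed at or next to the lowest value in all 44 cells. Des, the intermediate filament protein desmin of muscle cells, was present in 1 Acta2-high and 4 Acta2-low cells, with a mean difference of -1.07. Lmod1, a leiomodin of smooth muscle, and Ppp1r14a, an inhibitor of myosin phosphatase, each reached 5 in 2 Acta2-high and 0 Acta2-low cells.

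Of the other actins 3 of 5 were measured, and Acta1 and Actc1 were not analysed here. Actb, a cytoplasmic actin of nearly all cells, had a mean log2 value of 10.04 ± 2.42 in Acta2-high and 9.40 ± 2.07 in Acta2-low cells. Actg1, the other cytoplasmic actin, had 9.48 ± 1.32 and 9.44 ± 2.07, so that the actin with a CArG box in its printed window differed by 0.04. Actg2, the actin of visceral smooth muscle, reached 5 in cell 30 alone, at 6.98, and was at most 1.40 in Acta2-low cells.

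Of 18 pericyte genes 17 were measured and 5 passed the filter, of which Rgs5 was higher and 0 lower, beside 1.52% and 1.41% of all genes compared, with a median difference of 1.82 among the 5. Per cell the count at a log2 value of 5 was 16 in cell 36, 7 in cell 30, 5 in cell 11 and at most 3 in every other cell of either group. The mean was 3.12 ± 3.83 in Acta2-high and 1.25 ± 0.93 in Acta2-low cells, and 2.09 ± 1.30 in the 11 Acta2-high cells left when cells 30 and 36 and cells 8, 17 and 40 (described with the tendon genes) are set aside.

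Rgs5, a regulator of G-protein signalling that marks pericytes, had values of 0.23, 2.79 and 10.20 (lowest, median, highest) in Acta2-high and 0, 0.97 and 6.78 in Acta2-low cells. The cells at 5 or more were cells 30, 36, 5, 2, 4 and 8, and 3 Acta2-low cells. Its mean difference of 2.80 was 1.96 without cells 30 and 36, and it was higher in 3 of the 4 blocks with a difference of -2.09 in block 3. Pdgfrb, the PDGF receptor of mural cells and of many fibroblasts, had values of 0.44, 5.65 and 7.92 against 0.31, 1.53 and 7.27. It reached 5 in 9 of 16 and 9 of 28 cells, was higher in Acta2-high cells in each of the 4 blocks, by 1.17 to 3.31, and had a mean difference of 1.82 over all cells, under the 2 used for a call. Notch3, a receptor of vascular smooth muscle, and Gucy1b3, a subunit of the nitric oxide receptor, each reached 5 in 3 Acta2-high and 0 Acta2-low cells. None of the 10 endothelial genes measured reached 5 in any cell. The summed log2 value of the list was 0.2 to 5.4 in Acta2-high and 0 to 2.7 in Acta2-low cells, and Emcn and Cldn5 stayed at or next to the lowest value throughout.

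**Figure D3:**
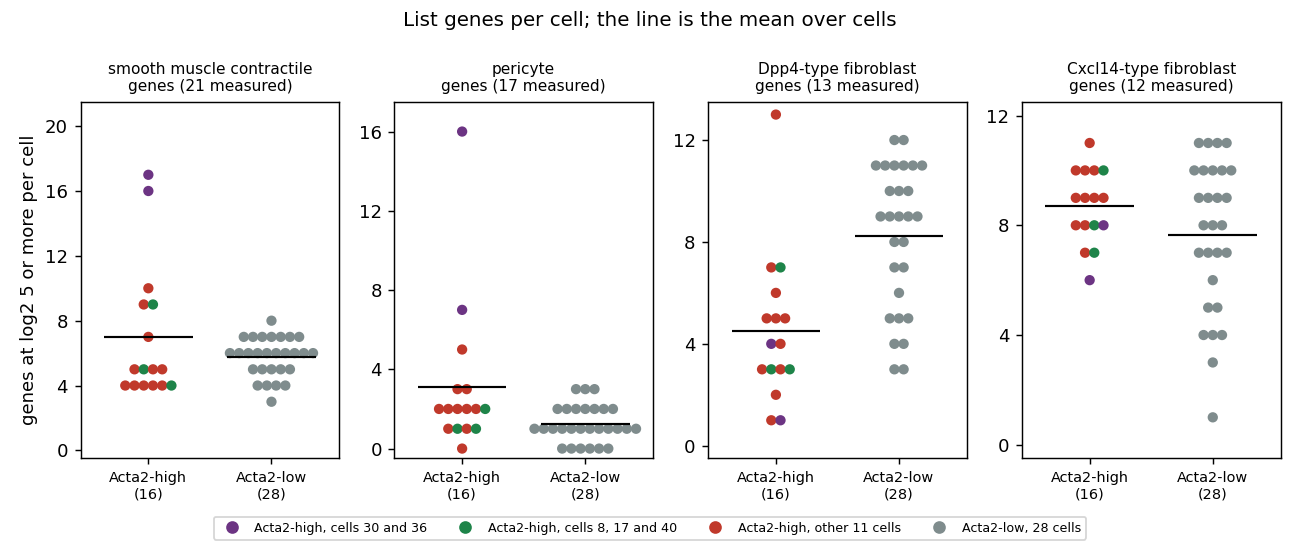
Number of genes at a log2 value of 5 or more in each cell (vertical axis) for 4 gene lists, in the 16 Acta2-high and 28 Acta2-low cells (horizontal axis), with the mean over cells as a line. Cells 30 and 36 stand alone at the top of the contractile list with 16 and 17 genes, while in the Dpp4-type list Acta2-high cells average 4.50 genes and Acta2-low cells 8.21.

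Genes of fibroblast types also differed between the groups. Fibroblasts of many tissues include a Dpp4- and Pi16-expressing type found in connective tissue sheaths and a type nearer to the parenchyma, which in muscle is marked by Cxcl14. All 13 Dpp4-type genes were measured, all 13 had a lower mean in Acta2-high cells, 12 passed the filter, and 7 of the 12 were lower by at least 2, against 1.41% of all genes. The median difference of the 12 was -2.17, and -1.88 without cells 30 and 36. Per cell, 1 to 13 of the genes reached 5 in Acta2-high cells (mean 4.50 ± 2.92) and 3 to 12 in Acta2-low cells (8.21 ± 2.83). The 13 were held by cell 3, whose Acta2 level was 6.67, and the next Acta2-high cells, cells 16 and 17, held 7.

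Efemp1, the matrix protein fibulin-3 (ENSMUSG00000020467, chromosome 11, 28853204 to 28926743, plus strand), had the largest negative difference of the genes compared. Its values were 0.92, 4.49 and 7.95 (lowest, median, highest) in Acta2-high and 1.32, 8.69 and 11.39 in Acta2-low cells. It reached 5 in 5 of 16 cells (31.2%, exact interval 11 to 58.7) and in 23 of 28 (82.1%, 63.1 to 93.9). Such intervals, here and for genes below, cover counting error over cells that are not replicates. The genes were picked for their differences, so the intervals are no test between the groups. The means were 4.46 ± 1.98 and 7.85 ± 3.00, a difference of -3.39, and within the 4 blocks the difference ran from -5.44 to -2.68.

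Pi16, a peptidase inhibitor homologue and the best known marker of this fibroblast type (ENSMUSG00000024011, chromosome 17, 29317680 to 29330593, plus strand), had values of 1.67, 4.17 and 9.73 in Acta2-high and 2.91, 9.51 and 11.65 in Acta2-low cells. The Acta2-high cells that reached 5 were cells 3, 16, 11, 40 and 17, at 9.73, 8.02, 7.55, 6.77 and 5.48, against 20 of 28 Acta2-low cells. The mean difference was -3.13, and it ran from -5.77 to -2.03 within the 4 blocks. In block 6, which has 1 Acta2-high cell, cell 40, Pi16 was higher in that cell than the mean of the 6 low ones, at 6.77 against 5.02.

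The other lower Dpp4-type genes were Scara5, a scavenger receptor that binds ferritin, Tek, the angiopoietin receptor, Sema3c, a secreted semaphorin, Pcolce2, an enhancer of procollagen processing, and Cd55, a shield against complement. Their mean differences were -2.78, -2.78, -2.73, -2.27 and -2.07. Tek reached 5 in 1 Acta2-high cell, cell 3 at 5.07, and in 13 of 28 Acta2-low cells. Sema3c reached 5 in 5 of 16 against 21 of 28 cells and Scara5 in 6 of 16 against 23 of 28. Dpp4 itself, a dipeptidyl peptidase of the cell surface, reached 5 in 4 of 16 and 11 of 28 cells, with a difference of -1.17 over all cells and -0.15 within blocks.

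Efhd1, a calcium-binding protein of mitochondria on no list (ENSMUSG00000026255, chromosome 1, 87264363 to 87310839, plus strand), was at 5 or more in Acta2-low cells alone. It ranged from 0.42 to 3.99 in Acta2-high cells, with a median of 1.69, and from 0.12 to 9.06 in Acta2-low cells, with a median of 5.83. It thus reached 5 in 0 of 16 Acta2-high cells, which allows a share of up to 18.75%, and in 17 of 28 Acta2-low cells (60.7%, 40.6 to 78.5). The mean difference was -3.33 and ran from -6.36 to -2.05 within the 4 blocks. Efhd1os, an antisense gene that overlaps Efhd1, had a difference of -3.24, and the pair cannot be told apart without strand. Tnfaip2, a protein induced by tumour necrosis factor, had -3.08, and Mrpl36, a mitochondrial ribosomal protein that overlaps Ndufs6 on the other strand, had -2.70 over all cells and -1.5 within blocks. Ang, the ribonuclease angiogenin, had -2.67, but was lower in 2 and higher in 2 of the 4 blocks, and it overlaps Rnase4 on the same strand.

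Of the 12 Cxcl14-type genes all passed the filter, 3 were higher in Acta2-high cells (Mgp, Apod and Penk) and 0 lower, against 1.52% and 1.41% of all genes compared, and the median difference was 0.45. Per cell, Acta2-high cells held 6 to 11 of the 12 (8.69 ± 1.35) and Acta2-low cells 1 to 11 (7.64 ± 2.75), so that Acta2-low cells covered the range of Acta2-high cells and also reached below it. Cxcl14 itself, a chemokine, had a mean difference of 0.84 and reached 5 in 4 and 3 cells. Apoe and Inmt, an apolipoprotein and a methyltransferase, both differed by -0.61.

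Mgp, an inhibitor of calcification secreted into the matrix (ENSMUSG00000030218, chromosome 6, 136872435 to 136875823, minus strand), had the largest positive difference of the genes compared. Its values were 5.40, 13.32 and 13.78 (lowest, median, highest) in Acta2-high cells and 3.75, 9.06 and 13.78 in Acta2-low cells. It stood at 13.78 in 7 Acta2-high cells, and cell 18 was the single Acta2-high cell under 9. The means were 12.19 ± 2.29 and 9.02 ± 2.96, the difference was 3.17, and it was positive in the 4 blocks, from 0.99 to 3.68. With values under 5 set to 5, the difference was 3.09.

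Apod, an apolipoprotein of fibroblasts, had values of 7.13, 11.46 and 14.95 in Acta2-high and 3.23, 8.54 and 13.78 in Acta2-low cells, with a mean difference of 2.85 and positive differences of 1.48 to 6.32 in the 4 blocks. Penk, the precursor of enkephalin peptides, had values of 5.05, 8.13 and 13.32 against 1.37, 5.57 and 14.95. It was at 5 or more in all 16 Acta2-high and in 16 of 28 Acta2-low cells, with a mean difference of 2.24 and positive differences in the 4 blocks, and 1.72 without block 4. Both genes overlapped widely between the groups.

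**Figure D4:**
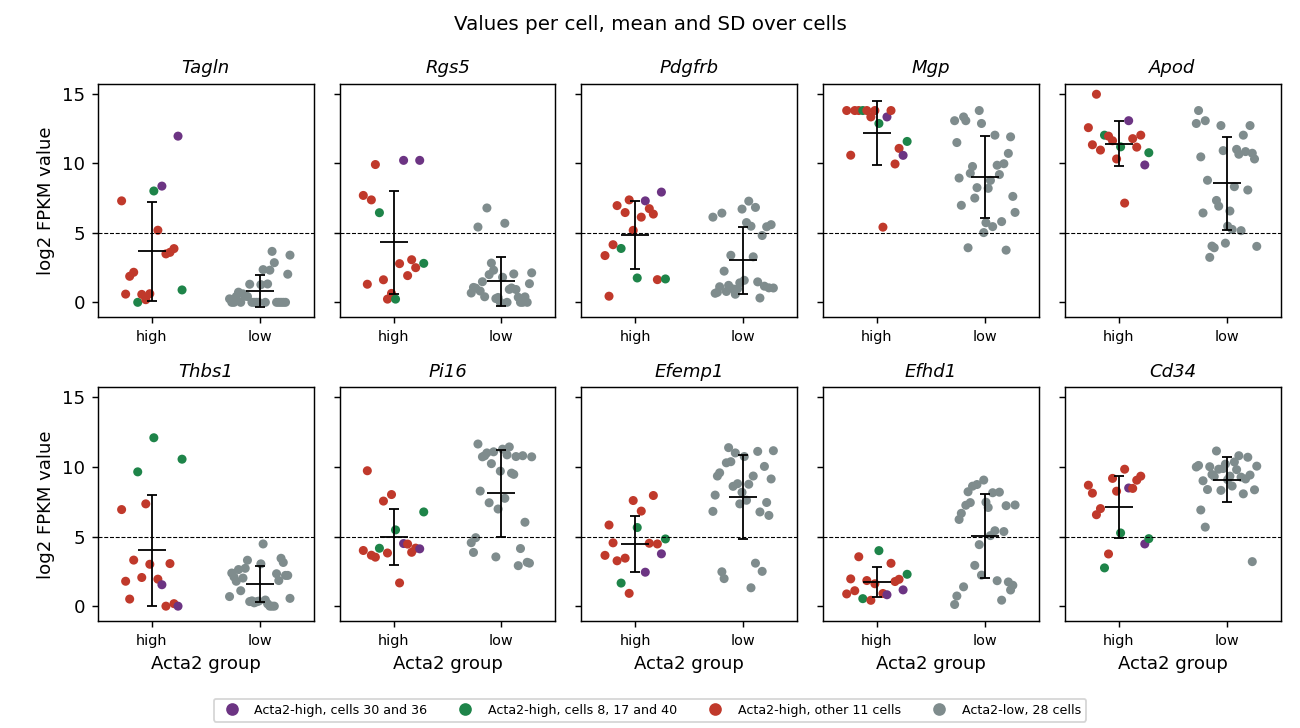
Deposited log2 FPKM values (vertical axis) of 10 genes in each Acta2-high and Acta2-low cell (horizontal axis), with the mean and SD over cells and the threshold of 5 as a dashed line. Tagln at 5 or more is confined to 5 Acta2-high cells, and Mgp and Apod crowd at high values in the Acta2-high group. Pi16, Efemp1 and Efhd1 reach higher values in the Acta2-low group, and the groups overlap.

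Both groups carried the genes of fibro-adipogenic progenitors. Of 16 such genes 14 were measured and passed, 0 were higher and 1 lower by 2 (Mfap5, a microfibril protein), beside 1.52% and 1.41% of all genes, with a median difference of -0.70. Pdgfra had a mean of 6.41 ± 2.64 in Acta2-high and 6.16 ± 2.57 in Acta2-low cells and reached 5 in 12 of 16 and 19 of 28. Its level was uneven within the Acta2-high group. Pdgfra stood at 9.68 in cell 30 and 2.16 in cell 36. In cells 8, 17 and 40 its mean was 3.06 and its highest value 4.12. In the other 11 Acta2-high cells the mean was 7.42 and the lowest value 5.12. Prrx1, whose promoter drove the label, reached 5 in 7 of 16 and 16 of 28 cells, with a mean difference of 0.52. Ly6a was at 5 or more in every cell, with means of 10.31 ± 2.39 and 11.95 ± 1.48, and Cd34 had 7.13 ± 2.24 and 9.09 ± 1.64.

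The lower mean of Ly6a lay mostly in a few cells. In cells 30 and 36 Ly6a had a mean of 7.18, in cells 8, 17 and 40 a mean of 7.63, and in the other 11 Acta2-high cells 11.60 ± 1.04, near the 11.95 of Acta2-low cells. Leaving out these 5 cells and the 7 cells with at least 3 myofibre genes moved the difference of Ly6a from -1.65 to -0.28, that of Mfap5 from -2.05 to -0.52 and that of Cd34 from -1.96 to -0.92. Under the same omission, Pi16 stood at -3.17, Efemp1 at -2.83 and Mgp at 2.80, against -3.13, -3.39 and 3.17 over all cells. Clec3b, a plasminogen-binding matrix protein, had a difference of -1.70 over all cells and -0.75 under that omission.

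Genes of the myofibroblast matrix were past a difference of 2 in both directions. Of 19 measured, 15 passed, 1 was higher (Thbs1), 2 were lower (Fn1 and Fap), where 1.52% and 1.41% of all genes were, and the median difference was 0.11. Thbs1 passed the filter through Acta2-high cells alone and Fap through Acta2-low cells alone. The chains of collagen I and III stood at like levels. Col1a1 had 7.53 ± 1.68 and 7.41 ± 1.78, Col1a2 had 9.11 ± 1.21 and 8.77 ± 1.33, and Col3a1 had 8.49 ± 2.94 and 8.79 ± 1.95. The collagen V chains Col5a1 and Col5a2 had mean differences of -0.9 and 0.3, and Col5a1 reached 5 in 1 Acta2-high and 6 Acta2-low cells. Fn1, fibronectin, was lower in Acta2-high cells, at 1.77, 4.98 and 8.74 (lowest, median, highest) against 1.18, 8.01 and 10.31, a mean difference of -2.06 that was negative in each of the 4 blocks and -1.68 without cells 30 and 36. Fap, a fibroblast surface protease, reached 5 in 0 of 16 and 9 of 28 cells, a mean difference of -2.18 that was -1.33 within blocks. Postn, periostin, and Tnc, tenascin C, which activated fibroblasts make, were rare, in 2 and 1 of the Acta2-high cells and 2 and 0 of the Acta2-low cells. Bgn, the proteoglycan biglycan, differed by 1.71 and reached 5 in all 16 Acta2-high and 19 of 28 Acta2-low cells.

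Of 18 TGF-beta pathway genes, all measured, 11 passed and 0 were past a difference of 2 in either direction, with a median of -0.09. Of all genes compared 1.52% were higher and 1.41% lower, shares at which a list this short can easily hold none. Tgfbr2, the type II receptor, had a mean difference of -1.44 and ran from -2.46 to -1.0 within the 4 blocks. Ltbp1, which holds latent TGF-beta in the matrix, had -1.37, and Tgfbi, a matrix protein that TGF-beta induces, had 1.04. The ligand genes Tgfb2 and Tgfb3 had -0.35 and 0.65. Smad7, the inhibitory target, reached 5 in 2 Acta2-high and 0 Acta2-low cells.

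Serum response factor, its cofactors and actin response genes gave 22 measured of 23, 16 passed, 1 higher (Ctgf) and 0 lower, beside 1.52% and 1.41% of all genes, with a median difference of -0.11. Srf was at most 1.62 in any cell and Myocd stayed at or next to the lowest value in all, so that neither could be compared. Mkl2, a cofactor of Srf, reached 5 in 1 of 16 and 7 of 28 cells. Ctgf, a secreted matricellular protein, had values of 0.49, 6.18 and 9.53 in Acta2-high and 0, 2.07 and 7.39 in Acta2-low cells, with a mean difference of 2.28, positive in the 4 blocks from 1.29 to 4.92. Without cells 8, 17 and 40, which hold the tendon genes and had a mean Ctgf value of 8.77, the difference was 1.42. Cyr61, its close relative, differed by 1.80 over all cells, 3.02 within blocks and 1.0 without the same 3 cells. Zyx, zyxin of focal adhesions, had a difference of -1.74 and was negative in each of the 4 blocks.

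Basement membrane and adhesion genes gave 18 measured, 14 passed and 0 past a difference of 2, beside 1.52% higher and 1.41% lower of all genes. The median was -0.33. Sparcl1, a matricellular protein, had the largest positive difference among the 14 at 1.83, and Hspg2, the heparan sulfate proteoglycan perlecan, the largest negative at -1.48. Col4a1, a chain of collagen IV that pericytes and fibroblasts make, differed by 1.40.

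Tendon genes moved with the Acta2 groups through 3 cells. Of 11 tenocyte genes 9 were measured and 6 passed, and Comp, a cartilage and tendon matrix protein, was higher and 0 lower, beside 1.52% and 1.41% of all genes. Cells 8, 17 and 40 held 6, 8 and 7 of the 9 genes, every other cell held at most 3, and these 3 cells were all Acta2-high, with Acta2 at 5.28, 9.75 and 9.01. In them Comp stood at 10.56, 11.01 and 11.52, and it reached 5 in 3 of the other 13 Acta2-high and 1 of the 28 Acta2-low cells. Thbs1, thrombospondin 1, stood at 9.65, 12.10 and 10.56 in the same cells, and elsewhere it reached 5 in cells 2 and 15 alone, at 6.94 and 7.35. Without these 3 cells the difference of Comp was 1.02 in place of 2.55 and that of Thbs1 was 0.86 in place of 2.42. The cells were set apart by their tenocyte genes, Comp among them, so the fall of Comp was built in. The values show where the differences lay and are no test. Pi16 and Mgp stood at -3.25 and 3.05 under this omission.

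Among the other leading genes with a higher mean, several were on no list. Meox1, a homeobox factor of the paraxial mesoderm (ENSMUSG00000001493, chromosome 11, 101877510 to 101894374, minus strand), had values of 0, 5.89 and 9.58 (lowest, median, highest) in Acta2-high and 0, 1.29 and 6.76 in Acta2-low cells. It reached 5 in 9 of 16 cells (56.2%, 29.9 to 80.2) and in 2 of 28 (7.14%, 0.877 to 23.5), and was higher in each of the 4 blocks by 0.94 to 3.99. The 9 cells were cells 5, 32, 2, 30, 33, 40, 8, 15 and 3, which include cells of each kind described above. Prrc2b had a difference of 3.07 and reached 5 in 10 of 16 and 2 of 28 cells. Got2, the mitochondrial aspartate aminotransferase, and Slc35b1, a nucleotide transporter of the endoplasmic reticulum, differed by 2.90 and 2.46, and both were higher in each of the 4 blocks. Fxyd6, a regulator of the sodium pump, and Gng11, a G-protein gamma subunit, differed by 2.73 and 2.58 over all cells, and by 1.80 and 1.5 within blocks. Sh3bgrl3, which overlaps Ubxn11, Lgals3, galectin-3, and Syncrip, an RNA-binding protein, differed by 2.48, 2.47 and 2.46. The difference of Syncrip was 1.93 within blocks, with 0.06 and 0.10 in blocks 3 and 5, and 1.34 without the cells of tendon, myofibre and most contractile genes.

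RNA of other cells and the state of the cells were read from further lists. Myofibre genes numbered 15 measured and 7 passed, with 0 past a difference of 2, beside 1.52% higher and 1.41% lower of all genes. Of these myofibre genes 3 or more were present in cells 5 and 32 of the Acta2-high and in 5 Acta2-low cells. The summed log2 value of the list ran from 5.0 to 60.5 in Acta2-high and from 8.8 to 104.8 in Acta2-low cells. None of 9 immune and 4 glial genes measured passed the filter. The immune genes Tyrobp, Fcer1g, S100a8 and Cd52 stayed at or next to the lowest value in all cells, while Cd68, a protein of macrophage lysosomes, stood at 8.80 in cell 4 and S100a9, a protein of neutrophils, at 9.37 in cell 11. Of the glial genes, S100b stood at 6.75 in cell 16, Ngfr at 6.22 in cell 41 and Ncmap at 8.59 in cell 7. The first 3 of these cells are Acta2-high and the last 2 Acta2-low, and each gene reached 5 in no other cell. Immediate early and heat shock genes, which cell dissociation can induce, were all measured and passed (17). Their median difference was 0.50 and 0 were past a difference of 2, beside 1.52% higher and 1.41% lower of all genes. Per cell 10.4 ± 2.76 of the 17 reached 5 in Acta2-high and 8.93 ± 3.39 in Acta2-low cells, and Fos and Hspa1a differed by 1.76 and 1.56. The part of these genes in the differences above was not tested.

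**Figure D5:**
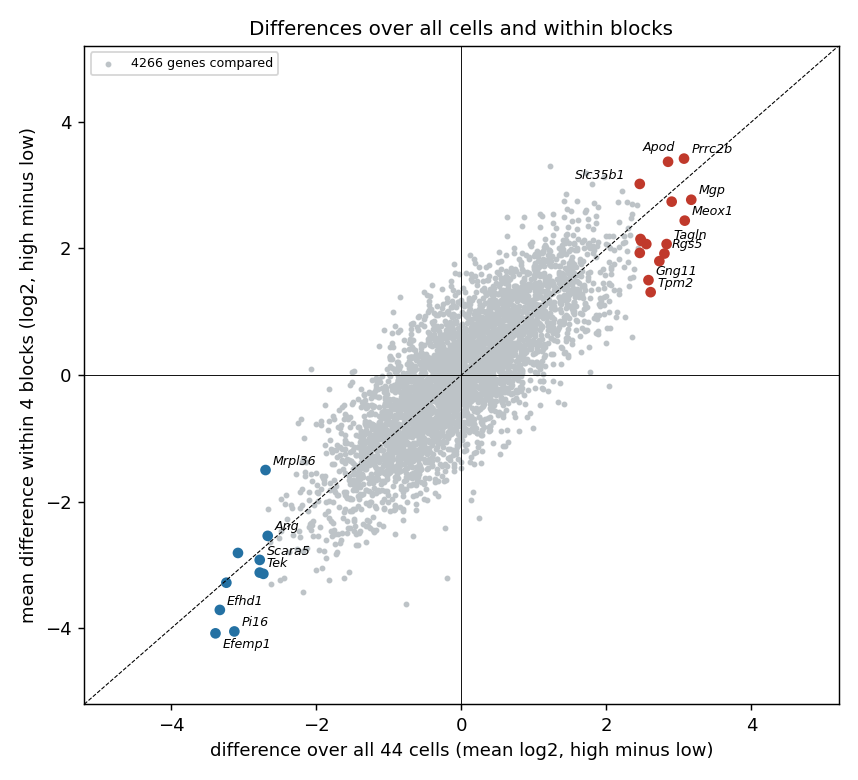
Difference of mean log2 value between Acta2-high and Acta2-low cells over all 44 cells (horizontal axis) and as the mean over the 4 blocks with at least 2 cells of each group (vertical axis) for the 4266 genes compared, the 25 leading genes in colour and the dashed line marking equal values. Efemp1, Pi16 and Efhd1 lie below the line of equality with larger differences within blocks, while Tpm2, Gng11 and Mrpl36 have smaller ones.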

How the data were processed

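Single-cell RNA was measured in 44 labelled cells. The authors deposited 1 table of log2 values, whose name gives FPKM. GRCm38, TopHat2 and Cufflinks are named, with no versions, in the submitters' processing notes. Base 2 was inferred from the values, since FPKM taken back with base 2 summed to between 564554 and 579854 per cell. At each of the top 4000 ranks the cells' values lay within 0.456 of one another, so the deposited values had been brought to nearly 1 distribution. No source used here names that step. Levels are therefore closer to ranks within a cell than to amounts of RNA, and sequencing depth is unknown. No test was made, and intervals and limits of a count of 0 (3 counts) cover counting error only.

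The table has 12745 rows. Gene IDs matched the reference (GENCODE M21) in 12711, 18 symbols written as dates were restored, and repeated symbols were reduced to their strongest row, which left 12707 symbols. Differences of group means, counts of cells at a log2 value of 5 and exact intervals were computed in Python 3.11.15 with numpy 2.4.6, pandas 2.3.3 and scipy 1.17.1. Cells were linked at a rank correlation over 0.541, set by Otsu's method, and blocks were found with networkx 3.6.1. The linking of pairs and the differences of group means were tested on simulated data, and the blocks were not. The cells were picked by hand and doublets were not called, so cells or fragments picked together were not excluded.

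The text names the 15 genes with the largest positive and the 10 with the largest negative difference, up to 4 genes per list with the largest difference in size, and a fixed set that includes Tagln, Myl9, Pdgfra and other actins. Other list genes were chosen after their values were seen, to describe a list. The division at an Acta2 value of 5, the 16 gene lists and the members were chosen with earlier results of these data known. Alternatives changed the threshold, the scale, the filter, the cells used and the handling of linked cells.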

Additional observations from a re-analysis of the deposited data

How the results depend on the processing

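The main counts, 65 genes higher and 60 lower, depend on several choices. With an Acta2 threshold of 7 they were 146 and 106, and with medians 196 and 180. They were 2 and 4 with values under 5 set to 5, 197 and 189 on log2(FPKM + 0.1), and 3 and 8 on log2(FPKM + 10). They were 556 and 561 for a difference of 1, and 3 and 5 for a difference of 3, and with a filter of 10 cells 42 genes were higher. Within blocks they were 98 and 133. Leaving out each cell in turn gave 57 to 75 higher and 54 to 74 lower. Further settings were chosen after seeing the data. Left out were cells 30 and 36 with all tendon and myofibre cells (144 and 117), the 3 tendon cells, cells 33 and 34, or block 4. Values near the carried signal were also set to 0 (104 and 141). The cause was not tested. Of the 65 and 60 genes, 64 and 59 kept their sign within blocks, and 65 and at least 59 under the other settings tried. These settings reuse the cells by which the genes were chosen, so kept signs are no separate support. The contractile list's median difference of 0.67 was -0.00 without cells 30 and 36 and the tendon and myofibre cells. The Cxcl14-type median of 0.45 was -0.00 at a threshold of 7. Cells 30 and 36 held the most contractile genes, so part of the contractile fall was built in. The Dpp4-type median stayed between -3.46 and -1.38, and the pericyte median of 1.82 ran from 0.58, with values under 5 set to 5, to 2.18. No paired analysis was possible because the cells form 1 group with no pairing in the labels. Depth is unknown, so an absent gene may be undetected.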
